A study of Mus musculus with 6 samples.

Results

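The Hox genes encode the homeodomain transcription factors that mark position along the body axis, and 37 of them were measured by a probe set of their own on the arrays described here. They were taken as every probe set whose only gene symbol was a Hox gene of the A, B, C or D cluster, out of 19938 genes with a single symbol. Each of the 37 had 1 such probe set, 10 in the HoxA cluster and 9 in each of HoxB, HoxC and HoxD. Hoxb8 was read only by a probe set that it shares with Hoxb7, which lay under the intensity cutoff used below.

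The cells were NIH/3T3, a continuous fibroblast line derived from mouse embryos, which stably expressed HA-tagged RPB1, the catalytic subunit of RNA polymerase II. In 3 biological replicates the construct was wild type, and in the other 3 it was 8KR, in which the 8 lysines at the seventh position of the C-terminal repeats were arginine, a residue that keeps the charge but cannot be acetylated. All 6 cultures received 2 ug/ml of α-amanitin, a toxin that blocks this polymerase, in DMEM supplemented with bovine calf serum at 10%, so that no untreated or untransfected cells enter any comparison. The sources used here do not say whether the replicates of a construct came from separate transfections, so a difference between stably expressing populations and a difference between constructs cannot be told apart, and the p-values measure the spread between these samples.

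The Hox clusters arose by duplication of 1 ancestral array, and genes at matching positions of the 4 clusters form paralogue groups. Genes at the low-numbered end of a cluster act in the head and neck, those at the high-numbered end in the lower trunk and distal limbs, and fibroblasts keep in culture much of the Hox pattern of the site they came from. Polycomb complexes hold silent stretches of a cluster in repressed chromatin, trithorax-related methyltransferases maintain active ones, and Pbx, Meis and Pknox proteins bind DNA together with Hox proteins.

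Values are log2 intensities, and since each probe set responds with its own brightness, each level is set against references on the same arrays. The references are probe sets of other genes, so contrasts between Hox genes may in part reflect probe brightness, which was not measured. The references were the median of all probe sets on an array, which ran from 4.49 to 4.54 over the 6 arrays, and the 1015 olfactory receptor genes, which fibroblasts are not known to use. Means of the olfactory receptor genes had a median of 2.62, a 95th percentile of 4.05 and a 99th percentile of 4.81. Over the 37 Hox genes alone, any pair of arrays correlated at 0.960 to 0.984, a description across genes of the same arrays. The probe set of Polr2a, the gene of RPB1, lay at 12.09 to 12.11 in wild type and at 12.12 to 12.13 in 8KR cells, and does not separate the constructs from the endogenous transcript. Fibroblast markers stood above the olfactory 95th percentile in 13 of 13 genes measured, against 0 of 7 for neurons, 1 of 6 for pluripotent cells, 2 of 7 for epithelium, 2 of 6 for leukocytes, 2 of 6 for endothelium and 4 of 6 for skeletal muscle. By the test described below, 3 of the 13 fibroblast markers were lower in 8KR cells, 0 were higher and 10 did not pass. Over all genes, 5.39% passed.

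Genes at the anterior ends of the clusters read above the references more often than those at the posterior ends. All 37 Hox genes had a mean above 3.0, the cutoff of the study's methods, in at least 1 group. Of these, 13 lay above the array median on all 6 arrays, 19 on none and 5 on some. The 13 were Hoxa2 to Hoxa7, Hoxb1, Hoxb3, Hoxb7, Hoxc6, Hoxd3, Hoxd8 and Hoxd9. Means over all 6 arrays, both groups together, exceeded the olfactory 95th percentile in 21 genes and the 99th in 15. The genes nearest the 95th percentile were Hoxb5 (mean 4.09) just above it and Hoxa13 (4.04) just under it. By group, Hoxb5 was under it in wild type (3.89) and above it in 8KR cells (4.29). Hoxa13 was above it in wild type (4.06) and under it in 8KR cells (4.02). Hoxb6, Hoxc4 and Hoxc5 had wild type means under the 99th percentile (4.76, 4.55 and 4.79) and 8KR means above it.

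By paralogue group, 5 of 7 genes in groups 1 to 3 lay above the array median on every array, as did 7 of 14 in groups 4 to 8 and 1 of 16 in groups 9 to 13. The olfactory 95th percentile was exceeded by the means over all arrays of 5, 13 and 3 of them, by Hoxb5 through its 8KR arrays only. The 1 gene of the posterior groups above the median was Hoxd9, and Hoxb9 and Hoxd10 were the others past the olfactory percentile.

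**Figure D1:**
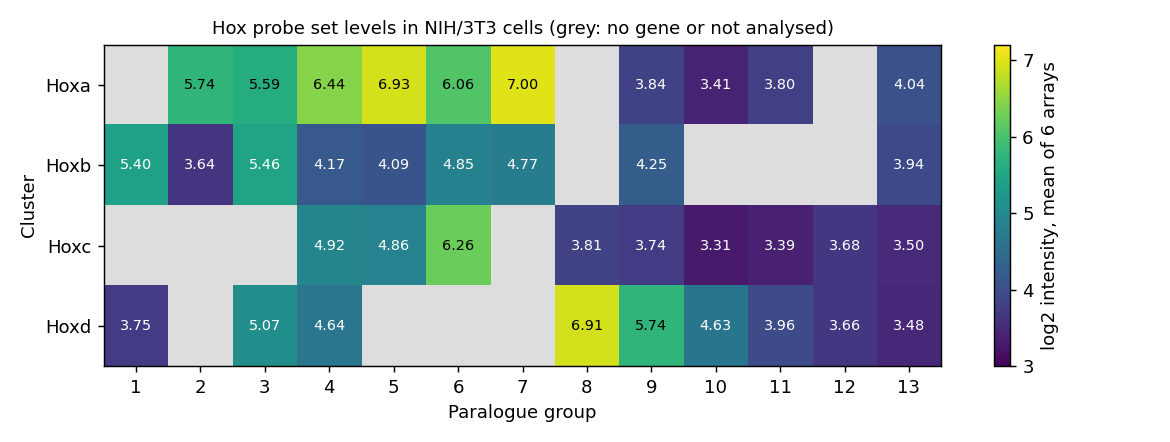
Mean log2 intensity over the 6 arrays for each Hox gene, with clusters as rows and paralogue groups as columns, and grey where there is no gene or it was not analysed. HoxA is above the array medians (4.49 to 4.54) through group 7 and below them from group 9, and in HoxD the genes of groups 8 and 9 read 6.91 and 5.74.

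The HoxA cluster fell into an anterior and a posterior block. All 6 genes from Hoxa2 to Hoxa7 lay above the array median on every array, and all 4 from Hoxa9 to Hoxa13 lay below it on every array. Hoxa7, a gene of the trunk region, read 6.88, 6.96 and 7.03 in wild type cells and 7.08, 7.12 and 6.92 in 8KR cells. The next gene on the chromosome, Hoxa9, which acts in the lower trunk and in blood progenitors, read 3.52, 3.64 and 3.85 on the wild type and 3.87, 4.10 and 4.03 on the 8KR arrays. Hoxa7 thus exceeded the highest olfactory receptor mean (6.35) on each array, while Hoxa9 lay at the 92.8th percentile of those genes.

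The start regions of these neighbours are shown because the change from above to below the array median falls between them. RefSeq (GRCm38.p6) places that of Hoxa7 at chr6:52218524-52218823, minus strand, and that of Hoxa9 at chr6:52227321-52227620, minus strand. Each runs from 250 bases before to 50 after the annotated start, 5′ to 3′ on the gene's strand, with CG dinucleotides, the sites of DNA methylation, in capitals. Which start these cells use was not measured.
Hoxa7: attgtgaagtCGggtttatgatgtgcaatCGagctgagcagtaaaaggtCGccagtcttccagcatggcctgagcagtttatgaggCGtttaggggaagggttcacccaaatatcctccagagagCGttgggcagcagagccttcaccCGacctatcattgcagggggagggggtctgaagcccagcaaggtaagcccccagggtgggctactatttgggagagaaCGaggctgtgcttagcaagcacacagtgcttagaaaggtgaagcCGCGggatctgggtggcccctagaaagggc
Hoxa9: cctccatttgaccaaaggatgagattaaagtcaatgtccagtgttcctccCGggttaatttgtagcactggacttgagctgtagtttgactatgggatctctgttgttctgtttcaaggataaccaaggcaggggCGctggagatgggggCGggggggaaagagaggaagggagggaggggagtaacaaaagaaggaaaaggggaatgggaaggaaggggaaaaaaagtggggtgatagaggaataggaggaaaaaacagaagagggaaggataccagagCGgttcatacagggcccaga
The Hoxa7 region holds 9 CG dinucleotides and that of Hoxa9 holds 4, against a median of 7 over the 32851 promoters in the table. Neither holds a TATAAA box or TGATNNAT, a pattern bound by Hox and Pbx proteins together, on either strand.

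Within the anterior block, Hoxa2, which patterns the second pharyngeal arch, read 5.72, 5.97 and 5.34 in wild type and 5.87, 5.80 and 5.75 in 8KR cells. Hoxa3, needed for the thymus and parathyroid, read 5.62, 5.75 and 5.60 against 5.49, 5.53 and 5.56. The 8KR arrays of Hoxa3 all lay under the wild type ones, whereas those of Hoxa2 lay inside the wild type range.

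Hoxa4 read 6.46, 6.39 and 6.55 in wild type cells and 6.52, 6.53 and 6.20 in 8KR cells. Hoxa5, which acts in lung and in the neck skeleton, read 6.87, 6.91 and 6.94 against 6.97, 6.79 and 7.09, and Hoxa6 read 6.02, 5.96 and 6.15 against 6.08, 6.04 and 6.10. The groups overlapped in all 3 genes. The posterior genes Hoxa10 and Hoxa11, which act in limb and uterus, and Hoxa13, which acts in the distal limb and urogenital tract, had means of 3.41, 3.80 and 4.04.

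HoxB showed no such block. Hoxb1, which marks a segment of the hindbrain, read 5.51, 5.56 and 5.29 on the wild type and 5.30, 5.34 and 5.40 on the 8KR arrays. Hoxb3 read 5.38, 5.57 and 5.32 against 5.72, 5.45 and 5.29. Both were above the array median throughout, and Hoxb2, which lies between them on the chromosome, had a mean of 3.64 and stayed below it on every array.

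Hoxb6 read 4.48, 5.01 and 4.79 in wild type and 4.82, 5.07 and 4.91 in 8KR cells, with 1 wild type array below the array median. Hoxb7 read 4.73, 4.57 and 4.84 against 4.87, 4.85 and 4.75. Hoxb4 and Hoxb9 stayed between the olfactory 95th percentile and the array medians on all arrays. Hoxb4 read 4.10, 4.13 and 4.16 against 4.11, 4.29 and 4.23, and Hoxb9 read 4.27, 4.14 and 4.34 against 4.36, 4.23 and 4.14. Hoxb13 (mean 3.94), a gene of the tail end and prostate, lay under that percentile. In none of these 5 genes did either group stand wholly above the other.

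HoxC had 3 genes whose means over all arrays were above the olfactory percentiles, and these were its 3 most anterior ones. Hoxc4 and Hoxc5 passed the 99th percentile (4.81) through their 8KR arrays, their wild type means being 4.55 and 4.79. Hoxc6, a gene of the thoracic region, read 6.09, 6.27 and 5.89 on the wild type and 6.49, 6.22 and 6.63 on the 8KR arrays. Hoxc5 read 5.10, 4.77 and 4.52 against 4.43, 5.13 and 5.22, so that it lay on both sides of the array median. The 6 genes Hoxc8, Hoxc9, Hoxc10 of the hindlimb, Hoxc11, Hoxc12 and Hoxc13 of hair and nail had means of 3.31 to 3.81, all under the olfactory 95th percentile.

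HoxD differed from HoxA in where its readings dropped. Hoxd8, a gene of the trunk, and Hoxd9, which acts in the lumbosacral region and limbs, were above the array median on all 6 arrays, although HoxA has no group 8 gene and its group 9 gene was below it. Hoxd3 was also above it, at 5.07, 4.98 and 4.98 in wild type and 4.92, 5.20 and 5.28 in 8KR cells. Hoxd10 lay around the median, and Hoxd11, Hoxd12 and Hoxd13, the genes of the distal limb, had means of 3.96, 3.66 and 3.48. Hoxd1, at the anterior end, had a mean of 3.75 and was below the median on every array.

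The start region of Hoxd8 (chr2:74704365-74704664, plus strand) is shown as the one of HoxD whose gene read above the highest olfactory receptor mean on each array, with CG dinucleotides again in capitals.
Hoxd8: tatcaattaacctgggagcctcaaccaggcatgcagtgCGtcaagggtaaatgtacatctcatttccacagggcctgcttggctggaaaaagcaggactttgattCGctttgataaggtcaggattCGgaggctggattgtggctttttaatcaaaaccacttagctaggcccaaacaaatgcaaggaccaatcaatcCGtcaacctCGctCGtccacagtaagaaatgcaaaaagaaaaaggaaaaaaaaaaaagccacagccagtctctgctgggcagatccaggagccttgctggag
It holds 6 CG dinucleotides. A promoter was found in the table for 21 of the 37 genes, 23 promoters in all, since Hoxa10 and Hoxd11 have more than 1. Their CG count ran from 4 to 45 with a median of 15, and regions rich in CG belonged to genes on both sides of the references: Hoxa5 (29 CG, mean 6.93) and Hoxa6 (26, 6.06) on one side, Hoxa13 (45, 4.04) and Hoxd13 (37, 3.48) on the other. TGATNNAT was found on either strand in 3 of the 23, those of Hoxa2, Hoxb1 and 1 of Hoxd11, against 8.85% of all promoters. TATAAA was found in 3 of them, against 13.6% of all.

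**Figure D2:**
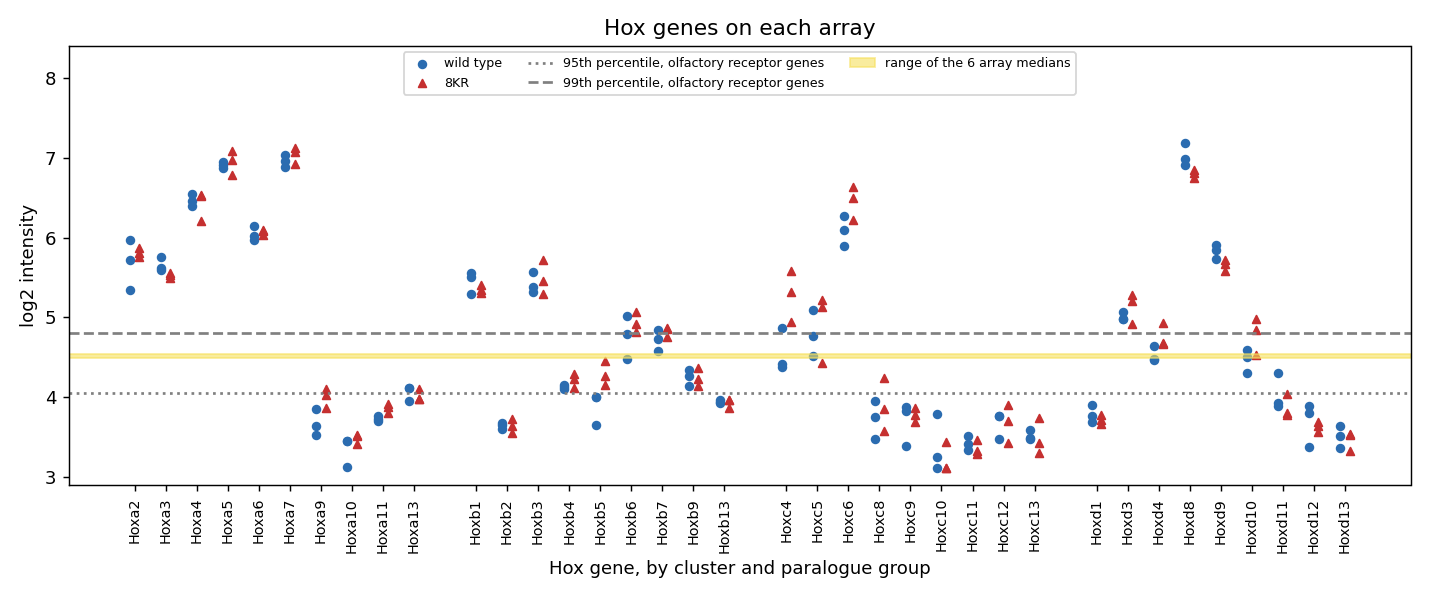
Log2 intensity of the 37 Hox genes on each array, ordered by cluster and paralogue group, with circles for wild type and triangles for 8KR, lines at the 95th and 99th percentiles of the olfactory receptor genes (4.05 and 4.81), and a band for the 6 array medians. HoxA drops below the band after Hoxa7, and the 8KR triangles of Hoxc4 stand above the wild type circles.

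No Hox gene passed the test between 8KR and wild type cells. Of the 37 genes tested, 0 passed an adjusted p of 0.05 (limma, Benjamini-Hochberg over 28543 probe sets), beside 5.39% of the 17145 genes tested. At an unadjusted p under 0.05 there were 4 (10.8%), all of them higher in 8KR cells, against 21.8% of all genes. The difference was above 0 in 21 genes and below 0 in 16. The median difference was 0.04 on the log2 scale, against 0.01 over all genes, and the median size regardless of sign was 0.11, against 0.14.

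The largest difference was that of Hoxc4, which acts in the neck and upper trunk. It read 4.41, 4.86 and 4.37 on the wild type arrays (mean 4.55 ± 0.27, SD, n = 3) and 5.59, 4.94 and 5.31 on the 8KR arrays (5.28 ± 0.32). Every 8KR array was above every wild type array, the highest wild type array reading 4.86 and the lowest 8KR array 4.94. The log2 difference was 0.73 ± 0.21 (SE), or 1.66-fold, with a 95% interval of 0.22 to 1.24 and an adjusted p of 0.121 (limma). It ranged from 0.58 to 0.90 when any single array was left out.

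The annotated start region of Hoxc4 (chr15:103034145-103034444, plus strand) is shown as that of the gene with the largest difference. CG dinucleotides are in capitals.
Hoxc4: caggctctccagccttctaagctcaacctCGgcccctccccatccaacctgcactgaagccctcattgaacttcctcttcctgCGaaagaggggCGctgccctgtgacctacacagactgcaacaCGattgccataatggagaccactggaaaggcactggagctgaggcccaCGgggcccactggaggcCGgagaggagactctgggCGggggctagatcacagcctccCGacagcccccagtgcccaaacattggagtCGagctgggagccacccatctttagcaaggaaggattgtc
It holds 9 CG dinucleotides and neither of the motifs searched.

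The other 3 genes at an unadjusted p under 0.05 differed by less. Hoxb5 read 4.01, 3.65 and 4.01 in wild type and 4.15, 4.45 and 4.27 in 8KR cells, a log2 difference of 0.40 ± 0.14 (SE, adjusted p = 0.179). Hoxa9, whose values are given above, differed by 0.33 ± 0.12 (adjusted p = 0.195), and Hoxc6 by 0.36 ± 0.15 (adjusted p = 0.249). The groups did not overlap in Hoxb5 and Hoxa9, and did in Hoxc6, where the lowest 8KR array (6.22) was under the highest wild type array (6.27). Hoxb5 and Hoxa9 lay near or under the olfactory 95th percentile, so that they were read at the level of genes that fibroblasts are not known to use.

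In 8 Hox genes the arrays of the groups did not overlap, 21.6% of them, against 29.7% of all genes tested. Besides Hoxc4, Hoxb5 and Hoxa9, Hoxa11 and Hoxd4 were higher on every 8KR array. Hoxd4, which acts at the border of hindbrain and neck, read 4.47, 4.64 and 4.48 against 4.68, 4.66 and 4.93. Its difference was 0.23 ± 0.10, and that of Hoxa11, on 3.70, 3.73 and 3.77 against 3.91, 3.80 and 3.88, was 0.13 ± 0.07.

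Hoxa3, Hoxd8 and Hoxd9 were lower on every 8KR array. Hoxd8 read 6.91, 7.19 and 6.98 in wild type and 6.75, 6.84 and 6.81 in 8KR cells, a difference of -0.23 ± 0.10 (SE, adjusted p = 0.267 by limma). Hoxd9 read 5.91, 5.73 and 5.85 against 5.72, 5.58 and 5.67, a difference of -0.17 ± 0.08 (adjusted p = 0.338). The differences of these neighbours were below 0 while that of the next gene on the other side, Hoxd10, was 0.31 ± 0.14, on 4.59, 4.51 and 4.31 against 4.53, 4.84 and 4.98.

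By cluster, the median log2 difference was 0.06 in HoxA, 0.06 in HoxB, 0.08 in HoxC and -0.06 in HoxD, with 7 of 10, 5 of 9, 6 of 9 and 3 of 9 genes above 0. By position, it was -0.01 for groups 1 to 3, 0.12 for groups 4 to 8 and -0.02 for groups 9 to 13, with 12 of the 14 genes in groups 4 to 8 above 0. These are counts over neighbouring genes of the same 6 arrays and were not tested.

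The observed difference needed to pass differed by gene, and a true change of that size could still be missed. At each gene's own error, the log2 difference needed to pass ran from 0.36 for Hoxb13 to 1.28 for Hoxc5, with a median of 0.57. The 95% interval lay within -1 and 1 in 36 of the 37 genes, Hoxc4 being the exception, and within -0.5 and 0.5 in 26. Among HoxA genes above the array median, the interval ran from -0.33 to 0.23 for Hoxa4, from -0.20 to 0.28 for Hoxa5, from -0.17 to 0.22 for Hoxa6 and from -0.13 to 0.30 for Hoxa7. It was wider in Hoxa2, from -0.27 to 0.53, and ran from -0.32 to 0.06 in Hoxa3.

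**Figure D3:**
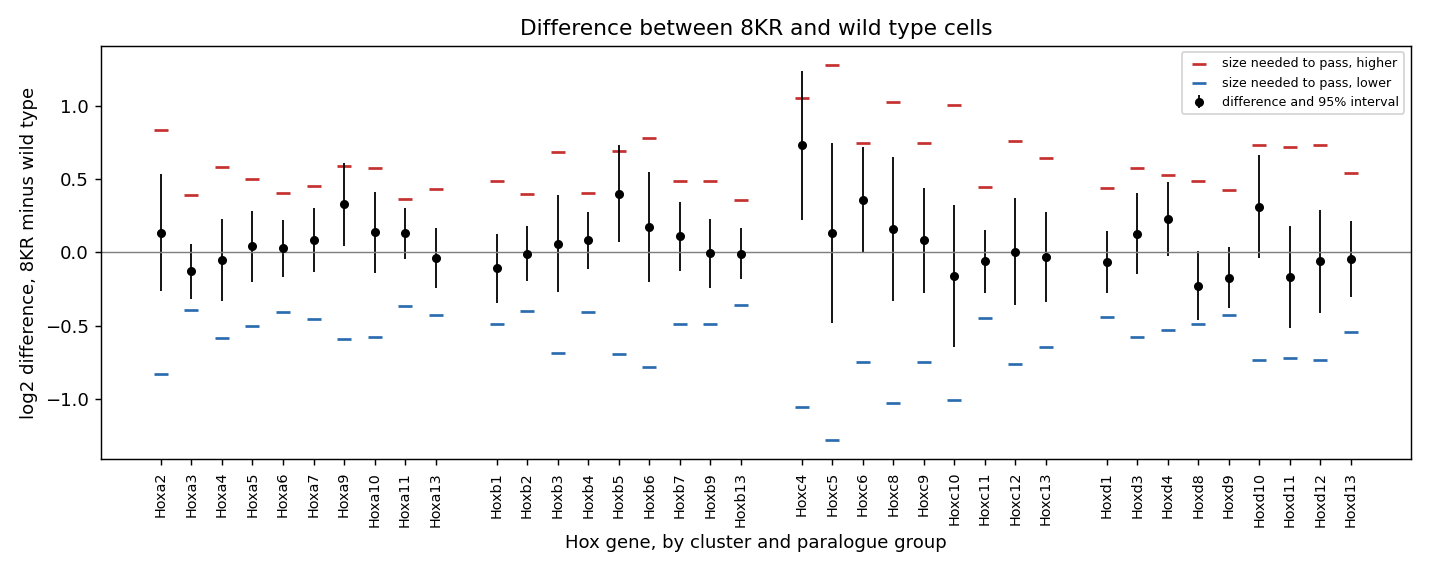
Log2 difference between 8KR and wild type cells (y axis) for each Hox gene (x axis), with points for the difference, bars for its 95% interval (limma, 3 arrays a group) and short dashes for the size needed to pass. No point lies beyond its dashes, and the largest difference, that of Hoxc4 at 0.73, is under the 1.05 needed.

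Genes listed for a relation to Hox genes were then compared, in 6 lists. The Hox genes shared their arrays and their fit with these lists. Among the 8 TALE cofactors tested, which bind DNA beside Hox proteins, 1 passed and 7 were not called, beside 5.39% of all genes called. Meis3 read 6.06, 6.06 and 6.31 in wild type and 6.72, 6.94 and 6.76 in 8KR cells, and rose by 0.66 ± 0.11 (SE) on the log2 scale (adjusted p = 0.0304). Meis1 differed by 0.46 (adjusted p = 0.0515) and Meis2 by -0.23 (adjusted p = 0.319). Median differences were -0.06 over the list and 0.01 over all genes.

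Of 31 Polycomb group genes, 3 rose, 1 fell and 27 were not called, beside 5.39% of all genes called, with a median difference of 0.11. Ezh2, the histone H3 lysine methyltransferase of Polycomb complex PRC2 in dividing cells, read 7.87, 7.77 and 7.73 against 8.28, 8.38 and 8.30 and rose by 0.53 (adjusted p = 0.0223, limma). Suz12, a core subunit of the same complex, rose by 0.37 (adjusted p = 0.0432), and Phc1 of the PRC1 complex by 0.42 (adjusted p = 0.0403). Ezh1, the alternative methyltransferase, fell by 0.40 (adjusted p = 0.0459). Of the 16 Hox genes in groups 9 to 13, 14 stayed below the array median on every array of both groups. Of the others, Hoxd9 was above it throughout and Hoxd10 around it. Chromatin was not measured, and a relation of these readings to the Polycomb genes was not tested.

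None of the 14 trithorax-related genes and demethylases passed, although 7 were at an unadjusted p under 0.05, all higher in 8KR cells, beside 21.8% of all genes at that p in either direction, and the median difference was 0.25. The smallest p-values were those of Kmt2b (0.39, adjusted p = 0.0508), a methyltransferase of active promoters, Dpy30 (0.48, adjusted p = 0.0935), a subunit shared by such complexes, and Dot1l (0.36, adjusted p = 0.1001).

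A list of other positional transcription factors, not all of them of connective tissue, was tested in 51 genes, of which 1 fell and 50 were not called. Over all genes 5.39% were called, and the median difference of the list was 0.02. Prrx2, a homeobox gene of limb and face mesenchyme, read 8.73, 8.78 and 8.72 against 7.91, 8.01 and 8.09 and fell by 0.74 (adjusted p = 0.0093). Evx1 and Evx2, homeobox genes beside the posterior ends of HoxA and HoxD, differed by 0.05 and 0.12 and were not called.

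Among 17 genes listed as possible upstream regulators of Hox genes, 1 rose, 2 fell and 14 were not called. Over all genes 5.39% were again called, and the median difference of the list was -0.03. Whether the listed genes act on Hox genes in these cells was not tested. Gata6, a factor of endoderm and heart, read 5.47, 5.12 and 4.77 against 6.85, 6.67 and 6.59 and rose by 1.58 (adjusted p = 0.0121). Rarg, a retinoic acid receptor, read 7.70, 7.68 and 7.60 against 6.99, 7.16 and 6.86 and fell by 0.66 (adjusted p = 0.0238). Egr2, which drives Hox genes of the hindbrain and is also a serum-induced gene, fell by 1.20 (adjusted p = 0.0133). Hoxa2 and Hoxb2, its known targets in the hindbrain, differed by 0.13 ± 0.16 and -0.01 ± 0.08. Hoxb2, with a mean of 3.64, was already under the olfactory 95th percentile, where a fall could hardly be read. Whether either gene follows Egr2 in these cells was not tested.

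Of the 10 calls in these lists, that of Prrx2 held with any single array left out, that of Gata6 without 3 of the 6 arrays, and those of Egr2 and Rarg without 1. The other 6 were lost whichever array was left out.

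**Figure D4:**
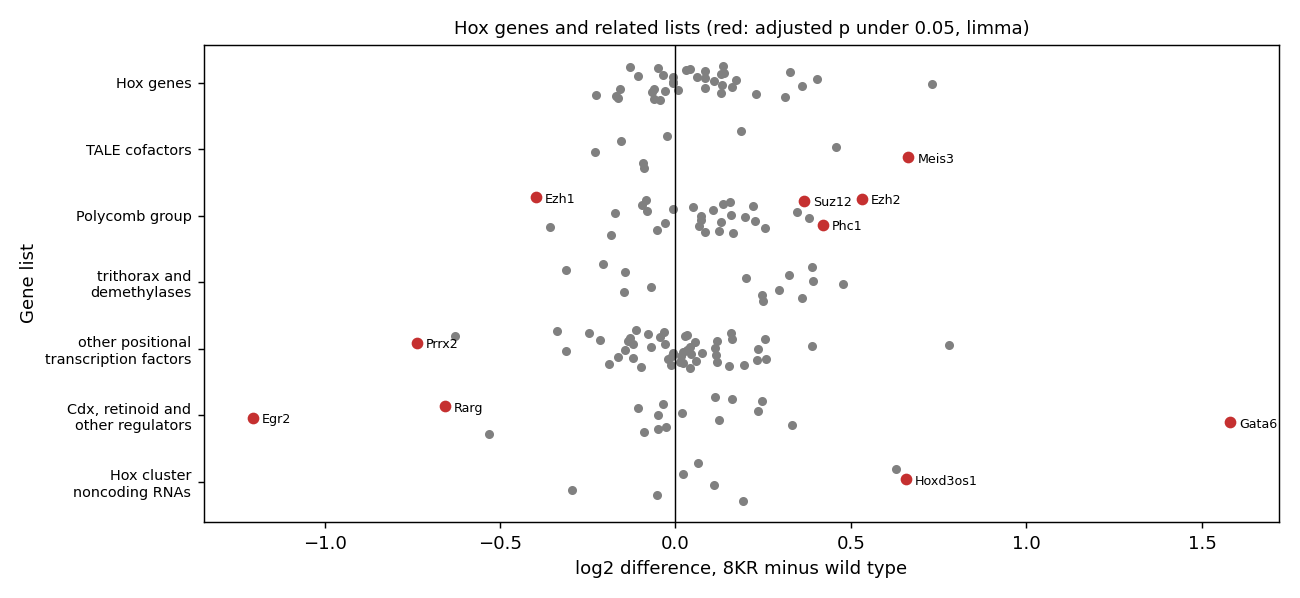
Log2 difference between 8KR and wild type cells (x axis) for the Hox genes and each tested gene of the 6 related lists (rows), with genes at an adjusted p under 0.05 (limma) in red and named, and heights within a row only separating points. The 37 Hox genes lie between -0.23 and 0.73 with none in red.

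Noncoding transcripts of the clusters were tested in 8 genes, of which 1 rose and 7 were not called, beside 5.39% of all genes called. Hoxd3os1, transcribed against Hoxd3, read 5.23, 5.21 and 4.91 on the wild type and 5.82, 5.81 and 5.70 on the 8KR arrays and rose by 0.66 ± 0.11 (adjusted p = 0.0335, limma). A second probe set of the same gene read 5.12, 5.16 and 5.21 against 5.18, 5.50 and 5.23, where the groups overlapped and the difference was 0.14 ± 0.11 (adjusted p = 0.543). The probe sets of this gene thus disagree. Its neighbours Hoxd3 and Hoxd4, read on the opposite strand of the chromosome, differed by 0.13 ± 0.11 and 0.23 ± 0.10. Haglr, at the HoxD cluster, differed by 0.63 (adjusted p = 0.345), with readings of 2.97 to 3.77 and 3.56 to 4.55.

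The start region of Hoxd3os1 (chr2:74716081-74716380, minus strand), the 1 transcript of the clusters that passed, holds 5 CG dinucleotides, in capitals.
Hoxd3os1: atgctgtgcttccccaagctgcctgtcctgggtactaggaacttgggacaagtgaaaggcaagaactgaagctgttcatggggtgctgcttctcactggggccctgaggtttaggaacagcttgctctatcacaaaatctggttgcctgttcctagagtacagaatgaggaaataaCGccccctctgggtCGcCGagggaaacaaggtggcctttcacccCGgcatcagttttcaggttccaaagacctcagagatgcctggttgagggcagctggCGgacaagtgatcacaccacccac

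The microRNA genes embedded in the clusters had probe sets annotated to them, which do not tell precursor from mature form. The mature sequences are shown with the seed, bases 2 to 8, in capitals, because they fall into a pair of families with shared seeds, as RefSeq gives them.
miR-10a-5p: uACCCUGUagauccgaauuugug
miR-10b-5p: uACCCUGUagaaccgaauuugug
miR-196a-5p: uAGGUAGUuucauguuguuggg
miR-196b-5p: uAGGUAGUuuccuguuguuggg
The members of each family differ at 1 base outside the seed. Mir10a, beside Hoxb4, and Mir10b, beside Hoxd4, had group means of 1.85 to 2.17, under the intensity cutoff, and were not tested. Mir196b, which lies between Hoxa9 and Hoxa10, read 3.49 to 3.86 on the wild type and 3.41 to 3.68 on the 8KR arrays, below the array median throughout. Mir196a-1 and Mir196a-2 differed by 0.11 and -0.30 on the log2 scale (adjusted p = 0.678 and 0.252), both with means under the olfactory 95th percentile. Mir615, which lies in HoxC, read 5.29 to 5.53 against 5.39 to 5.86, and the groups overlapped.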

How the data were processed

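RNA was hybridized to 6 Affymetrix Mouse Gene 1.0 ST arrays, and the log2 intensities used here were normalized by the authors and deposited as 1 table. Affymetrix Power Tools 1.12.0 appears in the submitters' processing notes. The sources used here give neither the normalization method nor a genome build. Samples were grouped by the labels. Of 35557 probe sets, 7014 with no group mean above 3.0 were removed, and 28543 were fitted in R 4.3.3 by limma 3.58.1, using lmFit and eBayes without covariates, with Benjamini-Hochberg adjustment. A gene was called at an adjusted p under 0.05 and its brightest probe set by mean stood for it. Every Hox gene past the filter was named, with values per array for those at an unadjusted p under 0.05 or past the olfactory 95th percentile. Of each of the 6 related lists, called members or those with the smallest p were named. The 7 lists of cell type markers were only counted. The Hox genes and the lists were chosen with earlier results of these data known. The fit was tested on simulated data. Arrays give no read depth, and their number limits precision. Start regions and microRNAs came from RefSeq tables (GRCm38.p6), with pandas and matplotlib for joins and figures. Alternatives covered the filter, normalization, array weights, the model of the variance, a replicate block, each array left out, single-symbol probe sets, an ordinary linear model and a stricter threshold.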

Additional observations from a re-analysis of the deposited data

How the results depend on the processing

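No Hox gene was called under any alternative, and the smallest adjusted p that one reached was 0.0504, for Hoxc4 with single-symbol probe sets only. The other 3 genes at an unadjusted p under 0.05 kept their direction throughout. Of 605 differences of Hox genes under alternatives, 575 kept their direction and 30 changed sign, 27 of those on leaving out an array. The filter, variance model, replicate block, single-symbol probe sets, ordinary linear model and stricter threshold leave a Hox gene's difference as it is. Only normalization, array weights and a left-out array could change a sign, so the 575 include values that could not change. Sign changed in 16 genes, with main differences of at most 0.16 in size. On leaving out each array in turn, their log2 differences ran over Hoxa2 (-0.033 to 0.281), Hoxa4 (-0.104 to 0.0581), Hoxa5 (-0.0274 to 0.124), Hoxa6 (-0.0104 to 0.0818), Hoxb13 (-0.0245 to 0.0253), Hoxb2 (-0.0487 to 0.0349), Hoxb3 (-0.0559 to 0.159), Hoxb9 (-0.0648 to 0.0454), Hoxc10 (-0.293 to 0.043), Hoxc12 (-0.104 to 0.131), Hoxc13 (-0.154 to 0.0645), Hoxc5 (-0.0137 to 0.382), Hoxc8 (-0.0146 to 0.316), Hoxc9 (-0.0693 to 0.174), Hoxd12 (-0.214 to 0.038) and Hoxd13 (-0.114 to 0.0249). Hoxc12 (0.01) was also below 0 with quantile normalization (-0.022), arrays centred on their median (-0.022) and array weights (-2e-04). The number of Hox genes at an unadjusted p under 0.05, an alternative chosen after seeing the data, was 4, and became 2 with the replicate block, 2 with an ordinary linear model and 1 to 5 with 1 array left out (1 without the third 8KR array, 2 without the second of either group). Probe sets called numbered 1245, against 2295 with a group mean above 5.0, 2200 with an intensity trend in the variance, 827 with an ordinary linear model, 260 at an adjusted p under 0.01 and 368 to 406 without 1 array. Calls in the related lists, 10 at first, were 17 with the mean above 5.0, 16 with single-symbol probe sets, 5 with an ordinary linear model, 1 at an adjusted p under 0.01 and 1 to 2 without 1 array. The cause of these shifts was not tested. With the replicate number as a block, 77 probe sets and 0 genes of the lists were called. Deviations of same-numbered arrays from their group means had correlations of -0.01, 0.01 and -0.0005. Only the second wild type array matched its own number best. No pairing by number was thus seen, though 3 arrays a group cannot exclude one. The Hox genes above the olfactory 95th percentile (21) were as many under quantile normalization, also chosen after seeing the data. Centring cannot change that count. Neither alternative can change the count above the array median (13), since both keep the order of probe sets within an array. A cutoff of 5.0 kept 13 Hox genes of 37, and the alternative of no filter gives no such count.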
